A study of Homo sapiens with 6 samples.

Results

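The BCL2 family survival genes examined here are the 9 genes BCL2, BCL2L1, BCL2L2, MCL1, BCL2L11, BID, BIK, BAK1 and BCL2L13, taken by gene symbol from an expression table of 57232 genes. All 9 had a row in the table, and 6 of them reached a mean of 1 FPKM (fragments per kilobase of exon, scaled to the mapped total of the library), the level above which 10416 genes were tested. The samples were IMR90 cells, human fetal lung fibroblasts, at passage 13. Cells were infected on day 0 with a vector carrying either the cDNA of ARID1B or no insert (empty vector), selected with puromycin until day 4 and collected on day 6. There were 3 libraries per group, made with a stranded mRNA kit and described by the study as biological replicates. ARID1B is a DNA-binding subunit of the SWI/SNF chromatin remodeling complex, and the study expressed it in IMR90 cells beside its knockdown experiments on senescence, a stable arrest of the cell cycle.

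The BCL2 family decides whether the outer mitochondrial membrane is opened during apoptosis. The prosurvival proteins BCL2, BCL-XL (encoded by BCL2L1), BCL-w (BCL2L2) and MCL1 hold back the pore-forming effectors BAK (BAK1) and BAX, and the BH3-only proteins BIM (BCL2L11), BID and BIK counter this restraint by inserting their BH3 helix into a groove on the prosurvival proteins. BCL-Rambo (BCL2L13) is a mitochondrial relative that also acts as a receptor for mitophagy. Senescent fibroblasts are known for resistance to apoptosis and for sensitivity to drugs that occupy the groove of BCL-XL, BCL-w and BCL2, which is why the levels of these genes are of interest in this setting.

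The BH3 helix is the feature that ties most of these genes together, so its coding stretch is shown for the 7 members in which a search found the core motif, written as leucine, any 3 residues, glycine, aspartate. Each stretch has 30 bases, 5′ to 3′ on the coding strand, from GENCODE release 29 transcripts (GRCh38), and capitals mark the codons of the motif's leucine and of its glycine and aspartate.
MCL1, chromosome 1, minus strand, leucine at residue 213: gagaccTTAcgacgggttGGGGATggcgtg
BCL2L1, chromosome 20, minus strand, leucine at residue 90: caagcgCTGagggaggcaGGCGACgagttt
BCL2, chromosome 18, minus strand, leucine at residue 97: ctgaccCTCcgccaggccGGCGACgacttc
BCL2L11, chromosome 2, plus strand, leucine at residue 152: caagagTTGcggcgtattGGAGACgagttt
BID, chromosome 22, minus strand, leucine at residue 136: aggcacCTCgcccaggtcGGGGACagcatg
BIK, chromosome 22, plus strand, leucine at residue 61: ctgcggCTGgcctgcatcGGGGACgagatg
BAK1, chromosome 6, minus strand, leucine at residue 78: cggcagCTCgccatcatcGGGGACgacatc
The same 6-residue pattern occurred in 13.8% of 19516 coding genes, so a match is only a description. BCL2L2 on chromosome 14 and BCL2L13 on chromosome 22 had no match to these letters. Residues were numbered in the longest protein annotated for each gene, which had 239 residues for BCL2, 350 for MCL1 and 198 for BCL2L11.

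ARID1B itself, the check of the labels, had 32.5, 21.0 and 28.3 FPKM in ARID1B libraries, against 2.29, 1.31 and 2.05 FPKM in vector libraries (3.29 higher on the log2 scale, adjusted p = 0.0255 in limma), and reads from the cDNA and the endogenous gene cannot be told apart. All 10 lung fibroblast markers were detected, with summed levels of 1925 to 2693 FPKM in ARID1B libraries and 1958 to 2661 FPKM in vector libraries, none of them past the threshold of the fit. No epithelial, endothelial or blood marker in the table reached 1 FPKM, and of 2 smooth muscle markers DES reached at most 1.17 FPKM. Totals of 63386813 to 91924514 reads per library could be worked out from the spacing of low FPKM values. Vector replicate 2 stood apart from the rest: it lay at -48.5 on the first principal component, which held 63.8% of the variance, and the other 5 libraries lay between -3.63 and 20.0. Replicate 3 of each group had values near a weighted mean of replicates 1 and 2, with 63.1% of replicate 1 in the ARID1B group and 83.6% in the vector group, and it lay between those replicates for 69.2% of all genes tested and 9 of the 9 members in ARID1B cells, and for 85% of all genes tested and 7 of the 9 members in vector cells. The labels call these libraries separate replicates and they were kept as such, but p-values may then rest on fewer independent samples than 3 per group. Changes of the 6 members tested are therefore also given without vector replicate 2 and without both libraries numbered 3.

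None of the 6 members tested passed an adjusted p of 0.05 in the limma fit across all 10416 genes, in either direction. In the same fit 3 genes, or 0.0288%, were called higher in ARID1B cells and 0 genes, or 0%, were called lower. No member reached an unadjusted p of 0.05 either, a level that 10.6% of all genes tested reached, and voom on the recovered reads also gave 0 members at both levels. For each of the 9 members the ARID1B and vector libraries overlapped. Among all genes tested, 9.44% had every ARID1B library above every vector library and 11.1% had every ARID1B library below. The log2 changes of the 6 members had a median of 0.08 and were positive for 5 of them, beside a median of -0.02 over all genes tested. With 3 libraries per group the smallest p that an exact permutation test can give is 0.1.

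**Figure D1:**
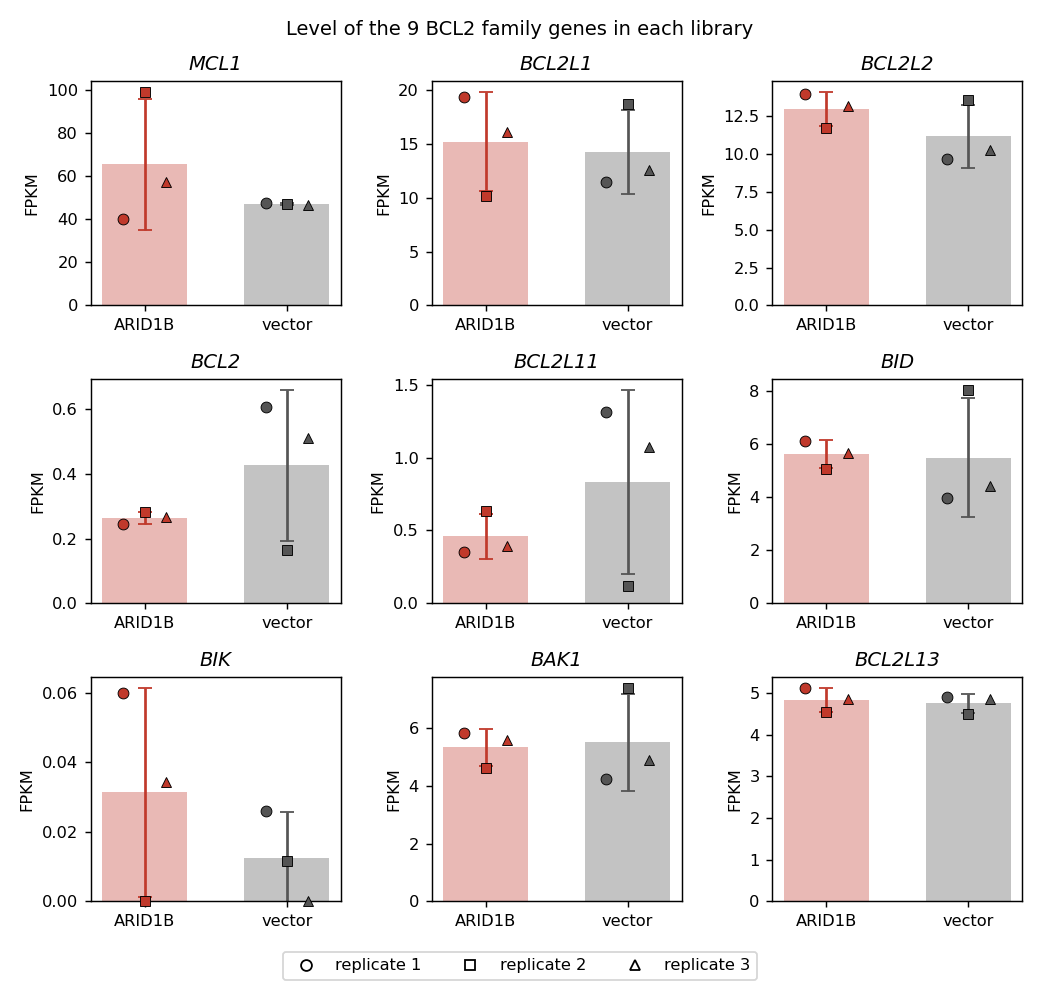
FPKM (vertical axis, linear, a separate scale for each gene) of the 9 BCL2 family genes in the 3 ARID1B libraries (red) and the 3 vector libraries (grey). Bars are group means, error bars are SD and symbols mark the replicate; MCL1 varied from 40.1 to 99.2 FPKM within the ARID1B group, while vector replicate 2 (grey square) was the highest library for BID and BAK1 and the lowest for BCL2 and BCL2L11.

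The prosurvival gene MCL1, whose short-lived protein sequesters BAK and BIM, had the highest FPKM of the members in each of the 6 libraries. That rank depends on the exon length used for each gene, and other lengths were not tested. MCL1 had 40.1, 99.2 and 57.3 FPKM in ARID1B replicates 1, 2 and 3, against 47.3, 47.2 and 46.5 FPKM in the vector replicates. In bulk RNA, fewer cells with a transcript and less of it per cell cannot be told apart. The vector libraries were thus nearly equal, whereas the ARID1B libraries lay on both sides of them and replicate 2 was far above all others. The means were 65.5 ± 30.4 FPKM in ARID1B cells and 47.0 ± 0.458 FPKM in vector cells (SD, n = 3 each). The log2 change was 0.37 with a standard error of 0.31 and a 95% interval of -0.38 to 1.13 (adjusted p = 0.71 from limma, exact two-sided permutation p = 0.4). Leaving out ARID1B replicate 2 brought the change to 0.03, and leaving out ARID1B replicate 1 brought it to 0.67, so single libraries set its size. Counting error was not the limit for this gene, since between 17223 and 45136 reads per library were recovered for it.

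BCL2L1, which encodes BCL-XL, came next by mean FPKM. Its levels were 19.3, 10.2 and 16.1 FPKM in ARID1B cells, against 11.5, 18.7 and 12.6 FPKM in vector cells. Both the highest and the lowest value belonged to ARID1B libraries, and ARID1B replicate 2, the library with the highest MCL1, had the lowest BCL2L1. The log2 change was 0.07 (standard error 0.28, 95% interval -0.59 to 0.74, adjusted p = 0.93 from limma). It turned negative without both libraries numbered 3, at -0.06, without ARID1B replicate 1, at -0.11, and without vector replicate 1, at -0.06, and it was 0.27 without vector replicate 2.

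BCL2L2, the gene for BCL-w, had 14.0, 11.7 and 13.2 FPKM in ARID1B cells, against 9.64, 13.5 and 10.3 FPKM in vector cells. Vector replicate 2 was the only vector library above any ARID1B library. The log2 change was 0.21 (standard error 0.15, 95% interval -0.16 to 0.58, adjusted p = 0.66 from limma). It was positive under each of the 19 settings compared, between 0.12 and 0.38. The exons of BCL2L2 are shared in part with the readthrough gene BCL2L2-PABPN1, so reads could be split between them, but that gene was listed at only 0.113 to 0.161 FPKM in ARID1B cells and 0.134 to 0.224 FPKM in vector cells.

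BCL2, the founding prosurvival member, was low. It had 0.245, 0.282 and 0.267 FPKM in ARID1B cells, against 0.607, 0.164 and 0.509 FPKM in vector cells. The 3 ARID1B libraries were nearly equal and lay between the lowest and the other vector libraries. BCL2 missed the filter of 1 FPKM, although its long exon model gave it 229, 279 and 328 recovered reads in ARID1B libraries and 653, 198 and 431 in vector libraries. Without the filter its log2 change was -0.16 on the log2(FPKM + 1) scale, which understates changes of low genes (standard error 0.13, adjusted p = 0.77 from limma).

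**Figure D2:**
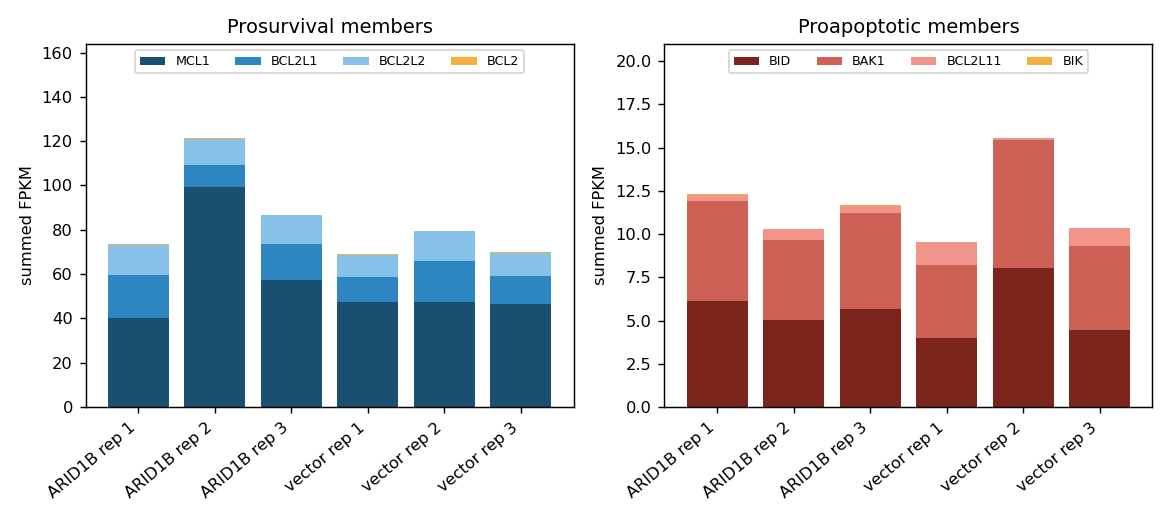
Summed FPKM (vertical axis, linear) of the 4 prosurvival members (left) and the 4 proapoptotic members (right) in each of the 6 libraries, with each gene as a segment. The prosurvival sum of ARID1B replicate 2 was 121 FPKM, most of it MCL1, and the proapoptotic sum was highest in vector replicate 2, at 15.6 FPKM.

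FPKM values of the 4 prosurvival genes were added within each library as a description. Sums, shares, ratios and the order of genes depend on the exon length used for each gene. The length recovered with the reads was 6141 bases for MCL1, 8970 for BCL2L1 and 10738 for BID. Their longest transcripts had 3932, 2610 and 2495 bases, and levels with other lengths were not tested. The prosurvival sum was 73.6, 121 and 86.8 FPKM in ARID1B cells, against 69.0, 79.6 and 69.8 FPKM in vector cells. The means were 93.9 ± 24.7 FPKM in ARID1B cells and 72.8 ± 5.90 FPKM in vector cells (SD, n = 3 each), and the groups overlapped. MCL1 supplied 54.4, 81.7 and 66.0% of that sum in ARID1B cells and 68.6, 59.3 and 66.6% in vector cells. Without MCL1 the sum was 33.5, 22.2 and 29.5 FPKM in ARID1B cells, against 21.7, 32.4 and 23.4 FPKM in vector cells. The balance between the pair of highest mean FPKM varied more within the ARID1B group than between the groups. In FPKM, MCL1 was 2.07, 9.72 and 3.56 times BCL2L1 in ARID1B cells, against 4.13, 2.52 and 3.70 times in vector cells.

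BCL2L11, the BH3-only gene for the potent activator BIM, varied more than BID, with an 11.3-fold range over the 6 libraries against 2.02-fold for BID. It had 0.351, 0.635 and 0.393 FPKM in ARID1B cells, against 1.31, 0.116 and 1.07 FPKM in vector cells. Both extremes were vector libraries, and the ARID1B libraries lay below vector replicates 1 and 3 and above vector replicate 2. The recovered reads were 261, 500 and 384 in ARID1B libraries, against 1124, 112 and 720 in vector libraries. Without the filter the log2 change was -0.27 (standard error 0.29, adjusted p = 0.79 from limma). MIR4435-2HG, a long noncoding RNA whose exons overlap BCL2L11 on the opposite strand, had 8.13, 6.83 and 7.31 FPKM in ARID1B cells and 6.05, 8.89 and 6.54 FPKM in vector cells. It was highest in vector replicate 2, where BCL2L11 was lowest, and lowest in vector replicate 1, where BCL2L11 was highest. Whether reads were counted by strand is not given in the sources used here, and the part of the overlap in the BCL2L11 values was not tested.

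BID, which links death receptors to mitochondria once caspase-8 cleaves it, had the highest mean FPKM of the 3 BH3-only members. It had 6.10, 5.06 and 5.68 FPKM in ARID1B cells, against 3.98, 8.04 and 4.43 FPKM in vector cells. The ARID1B values lay inside the vector range, whose top was vector replicate 2. The log2 change was 0.08 (standard error 0.24, 95% interval -0.49 to 0.65, adjusted p = 0.91 from limma). It was -0.09 without vector replicate 1, -0.02 without vector replicate 3 and -0.03 without both libraries numbered 3. BIK, a BH3-only protein of the endoplasmic reticulum, was near the floor of detection. Its reads numbered 4, 0 and 3 in ARID1B libraries and 2, 1 and 0 in vector libraries, too few to compare at this depth.

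BAK1, the gene for the effector BAK, had 5.83, 4.60 and 5.56 FPKM in ARID1B cells, against 4.23, 7.39 and 4.88 FPKM in vector cells. As for BID, the vector libraries held both extremes and replicate 2 was the highest. The log2 change was -0.01 (standard error 0.20, 95% interval -0.49 to 0.47, adjusted p = 0.98 from limma). BCL2L13 was the steadiest member tested, with 5.12, 4.55 and 4.87 FPKM in ARID1B cells, against 4.90, 4.50 and 4.87 FPKM in vector cells. Its log2 change of 0.02 had the narrowest interval of the 6 members tested, -0.21 to 0.26 (adjusted p = 0.94 from limma).

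The proapoptotic genes BID, BAK1, BCL2L11 and BIK added up to 12.3, 10.3 and 11.7 FPKM in ARID1B cells, against 9.55, 15.6 and 10.4 FPKM in vector cells. The ratio of the prosurvival to the proapoptotic sum was 5.96, 11.8 and 7.44 in ARID1B cells, against 7.23, 5.12 and 6.73 in vector cells. The highest ratio, in ARID1B replicate 2, paired the highest MCL1 with the lowest BID and BAK1 of the ARID1B group, and the lowest, in vector replicate 2, paired an MCL1 level close to the other vector libraries with the highest BID and BAK1. Ordered by group mean FPKM, the genes ran MCL1, BCL2L1, BCL2L2, BID, BAK1, BCL2L13, BCL2L11, BCL2 and BIK in ARID1B cells, and only BID and BAK1 changed places in vector cells. The ranges of BCL2L1 and BCL2L2 overlapped in both groups, as did those of BID, BAK1 and BCL2L13 as neighbours in this order, and those of BCL2L11 and BCL2 overlapped in vector cells. In FPKM, MCL1 was separated from BCL2L1 in both groups.

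**Figure D3:**
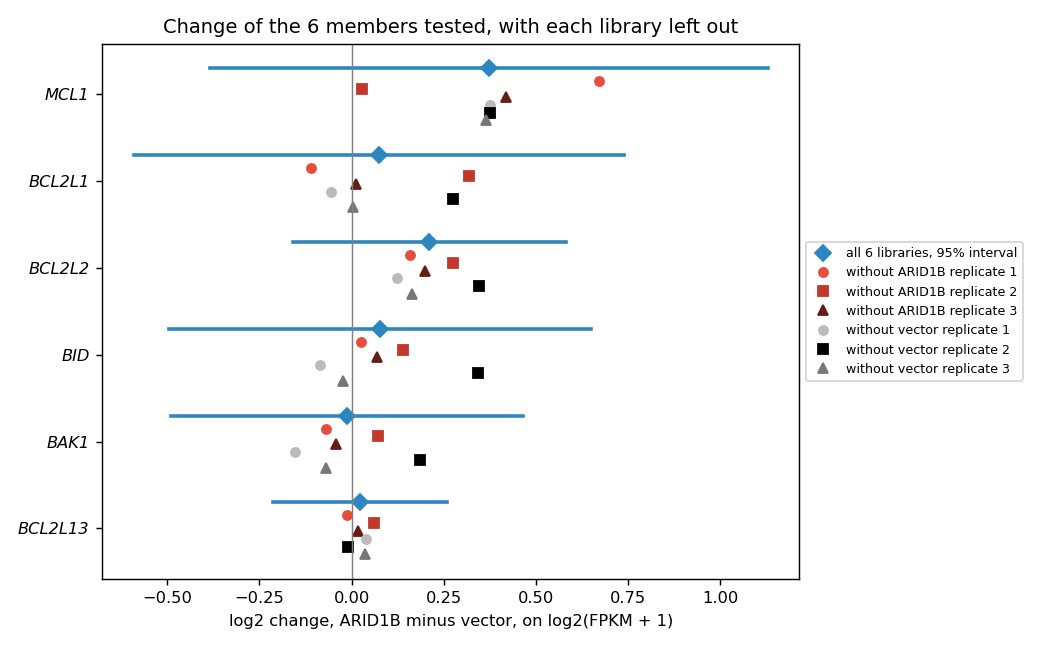
Change of the 6 members tested on the log2(FPKM + 1) scale (horizontal axis, ARID1B minus vector). Diamonds with lines give the value from all 6 libraries with its 95% interval and the other symbols give the value with 1 library left out; each interval includes 0, and leaving out vector replicate 2 moved BID to 0.34 and BCL2L2 to 0.35.

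Leaving out vector replicate 2 made separated groups more frequent over all genes tested, since dropping a library can only add such genes. Upward separation went from 9.44% to 18.8% of them and downward separation from 11.1% to 23.9%. Among the members, every ARID1B library was then above both remaining vector libraries for BCL2L2 and BID, and below both for BCL2 and BCL2L11. BCL2 and BCL2L11 missed the filter of 1 FPKM, so these shares cover genes of higher level. In limma's fit without vector replicate 2 the share of genes past the threshold in either direction was 3.11%, and none of the 6 members passed. BCL2L2 then stood at 0.35 with an adjusted p of 0.11 and BID at 0.34 with an adjusted p of 0.11 in limma, whereas MCL1 stood at 0.37, BAK1 at 0.19 and BCL2L13 at -0.01. When voom was run on recovered reads with a mean of at least 10 per gene, which admitted BCL2 and BCL2L11 to the test, both fell in ARID1B cells once vector replicate 2 was left out. BCL2 changed by -1.08 (standard error 0.15, adjusted p = 0.028 from limma with voom) and BCL2L11 by -1.43 (standard error 0.25, adjusted p = 0.041 from limma with voom), in a fit where 2.37% of genes were called lower. With all 6 libraries the same fit gave -0.46 for BCL2 (adjusted p = 0.77 from limma with voom) and -0.25 for BCL2L11 (adjusted p = 0.93 from limma with voom). On the log2(FPKM + 1) scale without a filter or vector replicate 2, the changes were -0.30 for BCL2 (adjusted p = 0.095 from limma) and -0.59 for BCL2L11 (adjusted p = 0.14 from limma). The calls for this pair thus rested on leaving out 1 vector library, a choice made after its values were seen. The vector group then held only replicates 1 and 3, and replicate 3 had values near a weighted mean with 83.6% of replicate 1. Standard errors and adjusted p-values of the fits without vector replicate 2 may therefore rest on little more than 1 independent vector library.

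Without both libraries numbered 3, the changes were 0.41 for MCL1, -0.06 for BCL2L1, 0.15 for BCL2L2, -0.03 for BID, -0.10 for BAK1 and 0.03 for BCL2L13, each with an adjusted p of 0.999 in limma's fit across all genes. BCL2, BCL2L11 and BIK were not fitted without these libraries.

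Base composition moved with the contrast. Over 10195 genes Spearman's correlation of the log2 change with transcript GC content was -0.55 with all libraries and -0.27 without vector replicate 2, as a description over genes that share the same 6 libraries. The members tested spanned 45.1% GC for MCL1 to 58.8% GC for BAK1, around a median of 47.8% over genes. After correction for GC content and length the changes were 0.29 for MCL1, 0.23 for BCL2L1, 0.23 for BCL2L2, 0.11 for BID, 0.20 for BAK1 and -0.07 for BCL2L13, with adjusted p values of 0.57 to 0.91 from limma. None of the 6 passed the threshold, and BAK1 and BCL2L13 turned sign.

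The gene tested whose pattern over the 6 libraries was nearest to each member was found as the smallest root mean square difference of centred log2 values. For MCL1 this was ZC3H12A, which encodes an RNase that degrades inflammatory transcripts, at a distance of 0.055 on the log2 scale. It had 1.19, 4.32 and 1.92 FPKM in ARID1B cells, against 1.57, 1.47 and 1.68 FPKM in vector cells. The peak in ARID1B replicate 2 that it shares with MCL1 follows from how the gene was chosen. IER3, an early response gene whose product binds MCL1, was singled out after its values were seen. It ranked only 36 in nearness to MCL1, at a distance of 0.21. IER3 had 25.9, 94.4 and 40.1 FPKM in ARID1B cells, against 29.6, 28.9 and 30.3 FPKM in vector cells. The nearest genes of the other members were SAPCD2 for BCL2L1 (0.031), FICD for BCL2L2 (0.023), SRPRB for BID (0.034), LAS1L for BAK1 (0.021) and ANKRD27 for BCL2L13 (0.013). LAS1L, a factor of ribosome assembly, had 5.73, 4.39 and 5.51 FPKM in ARID1B cells, against 4.28, 7.32 and 4.85 FPKM in vector cells. Its peak in vector replicate 2, shared with BAK1, likewise follows from the choice.

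**Figure D4:**
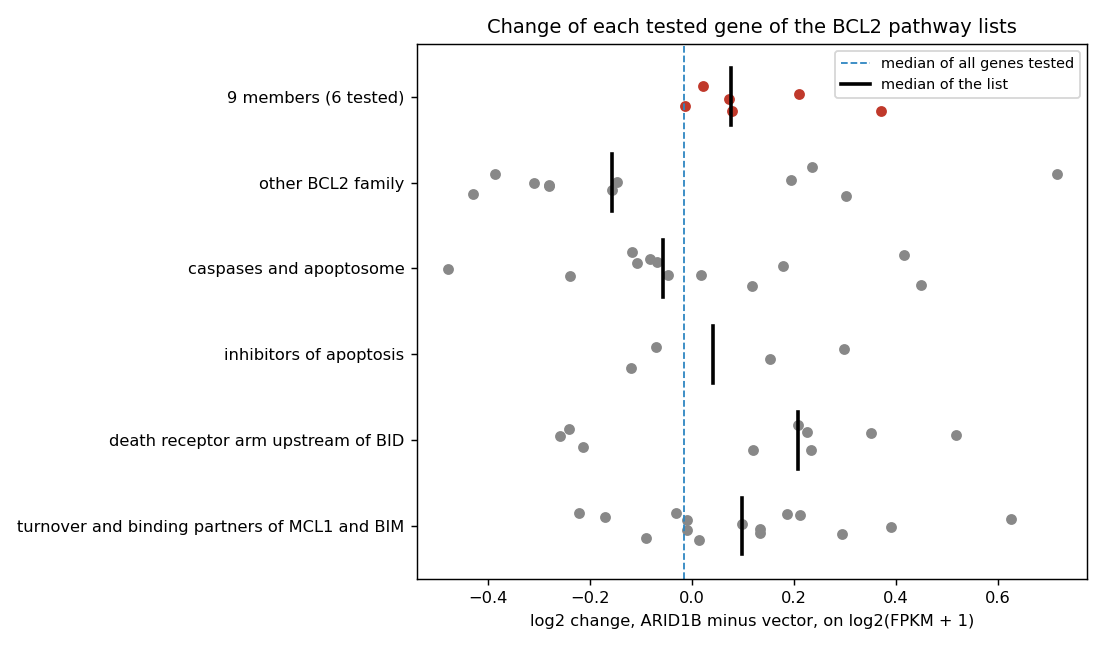
Change on the log2(FPKM + 1) scale (horizontal axis, ARID1B minus vector) of each tested gene of the 9 members (red) and of 5 lists of partner genes (grey). Black bars are list medians and the dashed line is the median of all genes tested, -0.02; no gene shown passed the adjusted threshold, and PMAIP1 lies farthest to the right at 0.72.

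Genes that act with these members were read from the same fit, and none of the genes in 5 lists passed the adjusted threshold in either direction. Of 16 other BCL2 family genes 11 were tested, with a median log2 change of -0.16, and 1 reached an unadjusted p of 0.05. Among all genes tested 10.6% reached it. That gene was PMAIP1, which encodes NOXA, the BH3-only antagonist of MCL1. It had 14.4, 18.9 and 18.0 FPKM in ARID1B cells, against 10.3, 10.5 and 9.19 FPKM in vector cells. Every ARID1B library of PMAIP1 was above every vector library, a pattern shown by 9.44% of all genes tested. Its log2 change of 0.72 had a 95% interval of 0.39 to 1.04 (adjusted p = 0.27 from limma). BAX, the effector partner of BAK, had 16.6, 13.4 and 15.2 FPKM in ARID1B cells, against 17.4, 26.4 and 18.9 FPKM in vector cells. Every ARID1B library was below every vector library, a pattern shown by 11.1% of all genes tested. BAX differed by -0.43 on the log2 scale (adjusted p = 0.48 from limma). Vector replicate 2 was again the library farthest from the rest, and ARID1B replicate 1 lay close below vector replicate 1. The groups of BAK1, whose product can form pores in place of BAX, overlapped, and the difference between these genes was not tested.

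Downstream of the pore, 12 of 15 caspase and apoptosome genes were tested, with a median log2 change of -0.06. CYCS, the cytochrome c released through the pore, had 20.1, 25.1 and 29.1 FPKM in ARID1B cells, against 17.8, 19.1 and 16.2 FPKM in vector cells (log2 change 0.45, adjusted p = 0.42 from limma). It reached an unadjusted p of 0.05, as did 10.6% of all genes tested, and did not pass after adjustment. Of 8 inhibitors of apoptosis 4 were tested, with a median log2 change of 0.04, and none reached an unadjusted p of 0.05. The giant ubiquitin ligase gene BIRC6 had a change of 0.30 (adjusted p = 0.72 from limma) and XIAP, the direct caspase inhibitor, one of 0.15 (adjusted p = 0.78 from limma).

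In the death receptor arm that feeds into BID, 9 of 12 genes were tested, with a median log2 change of 0.21. Of these, 2 reached an unadjusted p of 0.05, beside 10.6% of all genes tested. TNFRSF10B, the TRAIL receptor DR5, had 28.95, 32.7 and 28.7 FPKM in ARID1B cells, against 24.8, 21.7 and 23.7 FPKM in vector cells (log2 change 0.35, adjusted p = 0.39 from limma). TNFRSF1A, the main TNF receptor, had 15.1, 14.8 and 13.9 FPKM in ARID1B cells, against 17.7, 17.4 and 17.9 FPKM in vector cells (log2 change -0.26, adjusted p = 0.43 from limma). The groups of each receptor did not overlap, in opposite directions. Among all genes tested, 9.44% had such a separation upward, as TNFRSF10B, and 11.1% downward, as TNFRSF1A. Of 17 genes for turnover and binding partners of MCL1 and BIM, 15 were tested, with a median log2 change of 0.10 and none at an unadjusted p of 0.05. BTRC, a subunit of an SCF ubiquitin ligase, had a change of 0.29 (adjusted p = 0.56 from limma). USP9X, the deubiquitinase that stabilizes MCL1 protein, had 14.3, 14.1 and 14.7 FPKM in ARID1B cells, against 13.3, 7.53 and 12.2 FPKM in vector cells (log2 change 0.39, adjusted p = 0.56 from limma), with vector replicate 2 again the library farthest from the rest.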

How the data were processed

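The authors deposited a table of FPKM values per gene for the 6 libraries, and the submitters' processing notes name hg19, TopHat2 2.0.11, HTSeq 0.5.3p9 and DESeq2 without their roles. The values were tested as log2(FPKM + 1) with limma 3.58.1 in R 4.3.3 (lmFit, eBayes with a variance trend) over the 10416 genes averaging 1 FPKM or more, Benjamini-Hochberg adjusted over all of them, with a threshold of 0.05. Read counts were recovered from the FPKM steps: 100% of the genes tested came out whole within 0.002 reads, with 2283 to 3352.5 reads per gene in the median of a library. Reads do not separate molecules, so counting precision covers counting error only. Exact permutation tests were two-sided. The members and gene lists were chosen with earlier results of these data known. Text names all 9 members, the 2 genes of smallest p in each partner list (1 such gene is not reported here), and the nearest gene in pattern for each member tested. Alternatives were another pseudocount (0.1), filter (none, or 5 FPKM), scaling or variance model, a replicate block, libraries left out, GC correction by splines and voom on recovered reads. Fits with at least 10 reads per gene, and fits without a filter or vector replicate 2, were added after seeing the data. Coordinates were not given because the reference used for sequences is GRCh38, and the endothelial marker PECAM1 was not analysed here. Figures were drawn with matplotlib 3.10.9 in Python 3.11.15.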

Additional observations from a re-analysis of the deposited data

How the results depend on the processing

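With 3 libraries per group, 1 of them apart and the replicates numbered 3 close to mixtures, the intervals admit sizable changes of most members. The 3 genes called higher in ARID1B cells became 0 without a filter, 0 without both libraries numbered 3, 0 without a filter or vector replicate 2, 5 with GC and length correction, 1 with voom on reads, 1 with voom at 10 or more reads, and 198 with that fit without vector replicate 2. Leaving out 1 library at a time gave 0 to 125 genes higher and 0 to 199 lower, both maxima without vector replicate 2, and voom at 10 or more reads without that library gave 387 lower. Under that last fit, with only vector replicates 1 and 3 left, 2 members passed the threshold, BCL2 and BCL2L11. Under every other setting run 0 members passed. In many of those settings no gene passed in either direction, ARID1B included, so a count of 0 members there says nothing about the members. With the replicate number as a block 0 genes passed in either direction, 342 genes above and 262 below reached an unadjusted p of 0.05, and 0 members passed. Deviations of same-numbered libraries from their group means correlated at -0.46, -0.43 and -0.17, so the values showed no likeness by number. With 3 libraries per group and 1 of them apart, this cannot tell whether the cultures were handled in pairs. Some small changes turned sign. Leaving out 1 library at a time gave -0.11 to 0.32 for BCL2L1, -0.012 to 0.059 for BCL2L13, -0.15 to 0.19 for BAK1 and -0.087 to 0.34 for BID. Without both libraries numbered 3, BCL2L1 was -0.057 and BID -0.032. GC and length correction gave -0.067 for BCL2L13 and 0.20 for BAK1, and quantile normalization gave 0.0018 for BAK1. Without vector replicate 2, BCL2L13 was -0.0105 and BAK1 0.19 with no filter, and voom at 10 or more reads gave -0.013 for BCL2L13 and 0.23 for BAK1. The cause of these shifts was not tested. MCL1 kept its sign between 0.03 and 0.67.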
